A study of Mus musculus with 18 samples.

Results

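Bmf and 9 of its relatives in the Bcl2 family (Bcl2, Bcl2l1, Mcl1, Bax, Bak1, Bid, Bcl2l11, Bbc3 and Pmaip1) were examined in the livers of control and hypothyroid mouse pups. The 10 genes were represented by 18 of the 41174 probes of a 2-colour array, of which 23374 matched a current gene symbol. The set was named around Bmf, which was chosen by the fall of its array signal in hypothyroid against control liver. The differences between hypothyroid and control liver for these genes are therefore given as a description. Counts of genes past a threshold in that contrast stand only beside the share of all probes that passed it. Arrays were available for 5 control and 5 hypothyroid male C57BL/6 pups at PND 15, and miRNA assays (TaqMan low density arrays, TLDA, where each well amplifies 1 miRNA) for 4 and 4. Control litters stayed on 1% sugar water. Hypothyroid litters had 0.05% methimazole (MMI) and 1% perchlorate added to that water from PND 12, reaching the pups through treated dams and cages. MMI blocks the synthesis of thyroid hormone and perchlorate the uptake of iodide. According to the study's methods, pups of both groups also received PBS on the day of sacrifice, and each pup came from a different litter, so the replicates were separate animals.

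Proteins of the Bcl2 family decide whether the outer membrane of the mitochondrion stays intact. Bcl2, Bcl2l1 (Bcl-xL) and Mcl1 protect the membrane, Bax and Bak1 form pores in it that release cytochrome c, and the BH3-only proteins Bid, Bcl2l11 (Bim), Bbc3 (Puma), Pmaip1 (Noxa) and Bmf tip the balance by binding the protective members or the pore formers. Bmf is held on the motor complexes of the cytoskeleton through a dynein light chain and is set free when cells lose their attachment or are stressed. In liver, hepatocytes depend on Bcl2l1 and Mcl1 for survival, and Bid links death receptors to the mitochondrion.

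All values on the arrays are log2 ratios of liver RNA over a commercial pool of mouse RNA, the reference, which was put on every array. A value of 0 means that liver and reference gave equal signal and a difference of 1 between groups is a doubling. Each gene is described by its brightest probe above background, with its other probes beside it. Animals are named by the numbers in the labels, and array values are listed in the order 881, 832, 522, 616 and 391 for control liver and 891, 576, 311, 723 and 626 for hypothyroid liver.

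Some arrays stood apart. Both arrays of slide 141 (control 832 and hypothyroid 576) ran opposite to the rest when the dyes were read as labelled, with correlations of -0.974 and -0.978 with the mean of the other slides over all probes tested, against 0.884 to 0.988 for the other 8 arrays. The labels and methods name the same dye for liver on every slide, so the direction of that slide is not settled by them. Its channels were exchanged for the values here, and the main values are also given as labelled and without the slide. Control 616 had the lowest correlation, and its 7 hepatocyte markers averaged 2.63, against 4.09 to 4.88 on the other 9 arrays. Their summed liver signal, not normalized, was 1487000 in control 616 and from 1544000 to 1779000 in controls 881, 522 and 391. The 5 biliary markers, on average below the reference on every array, were at -0.64 in control 616 and from -2.38 to -1.91 elsewhere. Both lists thus had mean ratios nearest the reference on that array, and the cause was not tested. The tissue label was met in so far as each of the 7 hepatocyte markers was above background. The exception was Tat, which had no value in control 522. The 11 markers of exocrine pancreas on the array averaged 3.89, 3.97 and 2.45 in controls 832, 522 and 616, but 0.57 and 0.65 in the other 2 controls and 0.51 to 0.72 in hypothyroid liver. Their summed liver signal, not normalized, was between 6328 and 119500 in control and between 3108 and 9088 in hypothyroid liver. The 3108 came from hypothyroid 576 of slide 141, read in the other dye, and the next lowest was 6448. In whole tissue, fewer cells of a type and less RNA per cell cannot be told apart. Between 75.7% and 85.4% of probes were above background on each array, and the number of arrays limits the precision of every value here.

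Bmf was the member with the widest gap between the groups. Its log2 ratios were 1.07, 0.26, 0.82, 0.98 and 0.69 in control liver, and -0.82, -1.08, -0.23, -0.50 and -0.38 in hypothyroid liver. Every control liver had more Bmf signal than the reference and every hypothyroid liver had less, so the groups did not overlap. The mean was 0.76 ± 0.32 (SD, n = 5) in control and -0.60 ± 0.34 (SD, n = 5) in hypothyroid liver, a difference of -1.36 (SE 0.19), or 2.57-fold more in control. This difference chose the gene. Over all 32053 probes tested it was the 24th in order of fall, and 39 probes (0.122%) were lower by at least 1 log2 unit. The probes just before it were those of Rnase1 (-1.47) and Sycn (-1.52), and the probe just after it was that of Cnn1 (-1.23). The order ahead of Bmf also holds exocrine pancreas markers that some controls carried, such as Cpb1 (-3.23) and Cela3b (-2.96). Of the 10 such markers tested, 9 had a lower mean in hypothyroid liver. Their part in the rank of Bmf was not tested.

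On 4 slides a control and a hypothyroid liver lay side by side. Within them the Bmf difference was -1.36 on slide 100, -1.05 on slide 136, -1.89 on slide 139 and -1.34 on slide 141. All 4 slides had the same direction. Without slide 141 the difference over the remaining arrays was -1.37 (SE 0.14), and with the dyes of that slide read as labelled it was -0.83 (SE 0.38). Controls 832, 522 and 616, which carried the pancreas markers, had Bmf ratios inside the span of the other control values or below it, and without these 3 controls the difference was -1.48 (SE 0.21).

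**Figure D1:**
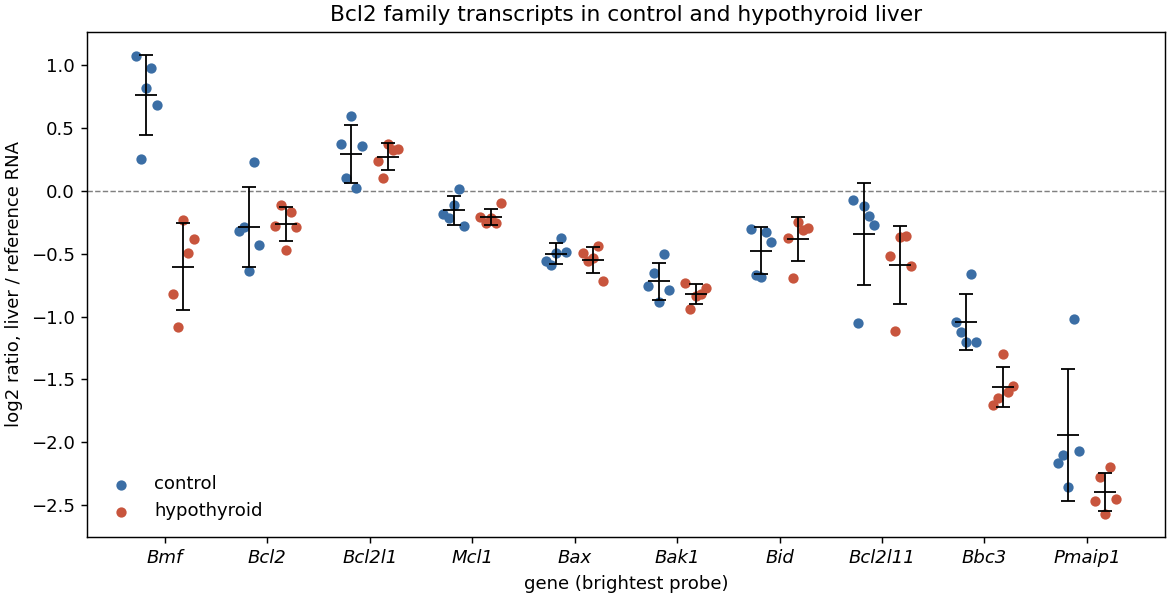
Log2 ratio of liver over reference RNA (vertical axis) for the brightest probe of each of the 10 genes (horizontal axis), 1 point per array, with the mean and SD of 5 control (blue) and 5 hypothyroid (red) livers. The control and hypothyroid points are apart for Bmf (means 0.76 and -0.60) and Bbc3 (means -1.04 and -1.56) and overlap for the other 8 genes.

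The 3 probes for Bmf did not behave alike. The second probe read 0.64, 0.25, 0.65, 0.26 and 0.49 in control and 0.50, 0.15, 0.78, 0.53 and 0.52 in hypothyroid liver. These groups overlapped almost fully, with a difference of 0.04 (SE 0.12), although the probe was well above background on all 10 arrays. The third probe was above the background limit on only 3 control arrays and 1 hypothyroid array, was well above background on 1 array, and was left out of the fit. Its ratios lay between -0.02 and 0.17 in control and between -0.17 and 0.02 in hypothyroid liver. The array annotation gives the same transcript for all 3 probes, and where on the transcript each one binds was not analysed here. Averaged over its tested probes, Bmf had a difference of -0.66 (SE 0.14).

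**Figure D2:**
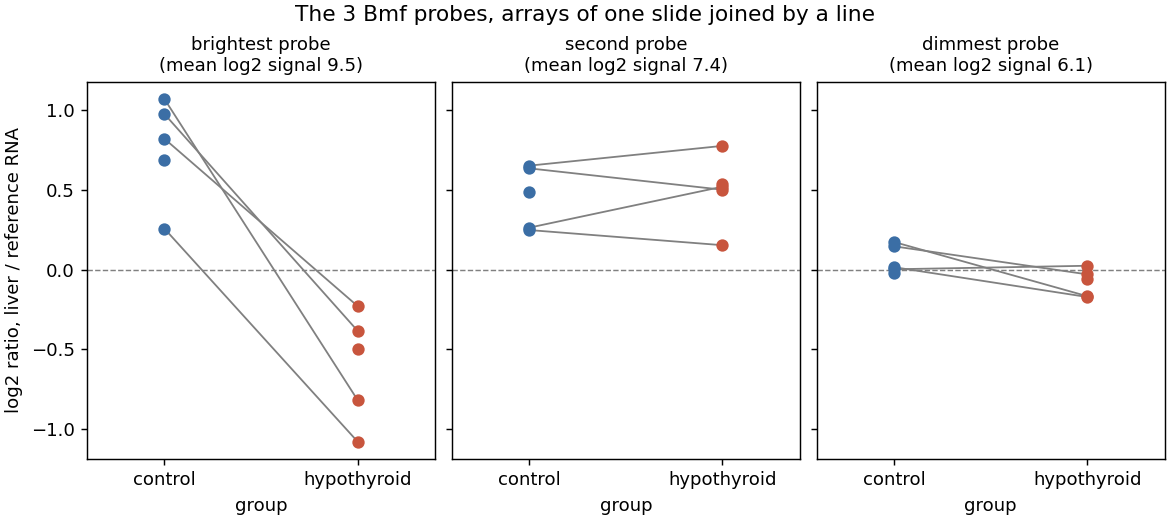
Log2 ratio of liver over reference RNA (vertical axis) for the 3 Bmf probes, from the brightest to the dimmest, in control (blue) and hypothyroid (red) liver (horizontal axis), with a line joining the 2 arrays of a slide. The lines of the brightest probe all run down, with differences from -1.89 to -1.05, whereas those of the second probe differ by -0.13 to 0.26.

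The side-by-side plot of the probes shows the 2 arrays without a partner on their slide (control 391 and hypothyroid 723) as points with no line. For the brightest probe these lay within the values of their own groups, at 0.69 and -0.50.

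The plot of Bmf against the pancreas markers sets the arrays that stood apart beside the gene. The control with the most Bmf signal (881, 1.07) had a pancreas mean of 0.65, and the control with the least (832, 0.26) had one of 3.89. Among hypothyroid livers the pancreas mean was within 0.51 and 0.72 while Bmf ranged from -1.08 to -0.23. None of the 11 pancreas markers was below background on every array.

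**Figure D3:**
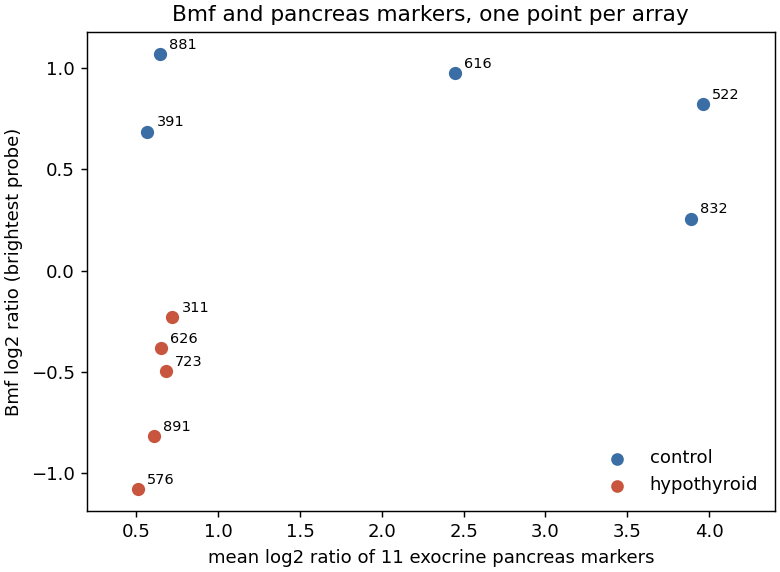
Log2 ratio of Bmf (vertical axis, brightest probe) against the mean log2 ratio of 11 exocrine pancreas markers (horizontal axis), 1 point per array, labelled with the animal, in control (blue) and hypothyroid (red) liver. Controls 881 and 391 lie at the same pancreas level as the hypothyroid livers (0.65 and 0.57) and above them in Bmf.

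The genes whose pattern over the 10 arrays was nearest to that of Bmf were found by the root mean square difference of log2 ratios, after the mean of each gene was taken off. They were Cpne2, a calcium-dependent membrane-binding protein (0.41), Sned1, a protein of the extracellular matrix (0.41), 2210407C18Rik (0.42), Thbd, the thrombin receptor thrombomodulin (0.44), and Mgp, an inhibitor of calcification (0.45). Their own differences were -0.73 for Cpne2, -0.78 for Sned1, -0.83 for 2210407C18Rik, -0.77 for Thbd and -1.04 for Mgp, all smaller than that of Bmf. Within the family Bbc3 was the nearest to Bmf (0.49) and Bcl2 the farthest (0.79). The Bmf pattern holds the gap between the groups that chose it. Genes near it were thus picked partly for a fall of their own, so nothing is read from these falls or from this order.

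Among the protective members, Bcl2 differed by 0.02 (SE 0.14). Its ratios ran from -0.63 to 0.23 in control and from -0.47 to -0.11 in hypothyroid liver, and the 1 control above the reference was animal 616. The second Bcl2 probe, which the array annotates to another Bcl2 transcript, read -0.66, -0.93, -1.19, -0.10 and -0.86 in control and -1.30, -1.05, -1.13, -1.09 and -1.07 in hypothyroid liver. Its difference of -0.38 (SE 0.17) leaned on control 616, and without that array it was -0.22 (SE 0.10).

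Bcl2l1, the survival factor of hepatocytes, was above the reference on all 10 arrays, from 0.02 to 0.60 in control and from 0.10 to 0.37 in hypothyroid liver. Its 3 probes differed by -0.02, 0.04 and -0.11 between the groups, with standard errors of 0.11, 0.08 and 0.10. Mcl1, a short-lived protein that is lost quickly when translation stops, ran from -0.28 to 0.02 in control and from -0.26 to -0.10 in hypothyroid liver. Both its probes had overlapping groups, with differences of -0.05 (SE 0.07) and -0.03 (SE 0.11).

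The pore formers varied little. Bax lay between -0.59 and -0.37 in control and between -0.72 and -0.44 in hypothyroid liver, with a difference of -0.05 (SE 0.07). Bak1 lay between -0.89 and -0.50 in control and between -0.94 and -0.73 in hypothyroid liver, with a difference of -0.10 (SE 0.08). Its second probe differed by 0.04 (SE 0.12) but stood on the other side of the reference, with a control mean of 0.44 against -0.72 for the first. The 2 probes of Bak1 thus give opposite answers on its level against the reference, and neither shows a gap between the groups.

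Of the BH3-only members besides Bmf, Bbc3, a target of p53, was the one other gene whose groups did not overlap. It read -1.04, -1.12, -1.20, -0.66 and -1.20 in control and -1.70, -1.65, -1.30, -1.60 and -1.56 in hypothyroid liver. The hypothyroid livers thus all lay below the lowest control, by a small margin for animal 311. The difference was -0.52 (SE 0.12), or 1.43-fold more in control, and within slides it ranged from -0.90 on slide 100 to -0.10 on slide 136. Without control 616, the highest control, the difference was -0.42 (SE 0.09). With the dyes of slide 141 as labelled it was -0.31 (SE 0.73).

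Pmaip1, another p53 target that binds Mcl1, read -2.16, -2.11, -2.35, -1.02 and -2.07 in control and -2.47, -2.28, -2.57, -2.20 and -2.45 in hypothyroid liver. Control 616 was far above the other controls, and the groups overlapped. The difference of -0.45 (SE 0.22) shrank to -0.22 (SE 0.09) without that array.

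Bcl2l11, a target of FoxO factors, read -0.07, -1.05, -0.12, -0.20 and -0.28 in control and -0.52, -1.12, -0.37, -0.36 and -0.60 in hypothyroid liver. The lowest value of each group came from slide 141, and the groups overlapped through it. The difference was -0.25 (SE 0.20) with slide 141 and -0.30 (SE 0.09) without it. On the second, dimmer probe the slide did not stand out (-0.50 and -0.43, with the other arrays from -0.65 to -0.34), and the difference was -0.05 (SE 0.08). Bid, which death receptors cut into its active form, read from -0.68 to -0.30 in control and from -0.69 to -0.25 in hypothyroid liver, with a difference of 0.09 (SE 0.11).

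Counted over the 10 genes, 0 passed an adjusted p of 0.05 in limma between hypothyroid and control liver, where 3 of all 32053 probes (0.00936%) did. At an unadjusted p of 0.05, 2 of the 10 genes passed (Bmf and Bbc3), where 7.47% of all probes did. The groups did not overlap for the same 2 genes, both lower in hypothyroid liver, where 0.993% of all probes were apart in that direction and 1.09% in the other. For both genes the groups overlapped with median centring alone and with the dyes of slide 141 as labelled. As the contrast chose Bmf, nothing is read from these counts. The median difference over the 10 genes was -0.08, beside -0.01 over all probes. The mean was lower in hypothyroid liver for 8 genes and higher for 2, but with each array only centred on its median, which moved the median of all probes to 0.09, the split was 4 and 6.

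How much of each transcript control liver holds against the reference is another quantity. It was tested in limma over all probes, with the spread of the 10 arrays, and covers the spread between livers only, since the reference is 1 pool. The control values of Bmf entered the difference that chose it, so its level is a description with no p. Of the genes other than Bmf, only Bcl2l1 was higher in control liver at an adjusted p of 0.05 (36.2% of all probes were). The other 8 were lower (33.5% of all probes). Bmf was above the reference by 0.76 log2 units (SE 0.13) on its brightest probe and by 0.46 (SE 0.09) on its second. Bcl2l1 was higher by 0.29 (SE 0.08, limma adjusted p = 0.00528) and by 0.21 on its second probe (limma adjusted p = 0.00479), while the other probe was at -0.09 (limma adjusted p = 0.285) and below the reference on 7 of 10 arrays.

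The lowest of the 8 was Pmaip1, which was 3.84-fold lower in control liver than in the reference (log2 ratio -1.94, SE 0.15, limma adjusted p = 6.6e-07). Bbc3 was 2.06-fold lower (-1.04, SE 0.08, limma adjusted p = 6.51e-07) and Bak1 1.65-fold lower on its brightest probe (-0.72, SE 0.06, limma adjusted p = 7.06e-07), while its second probe was 1.35-fold higher (0.44, SE 0.09, limma adjusted p = 0.000766). Bax was lower by a log2 ratio of -0.50, Bid by -0.48, Bcl2 by -0.29 and Mcl1 by -0.16, with limma adjusted p-values of 4.18e-06, 0.000192, 0.0242 and 0.0156. The second Bcl2 probe was lower too (-0.75, limma adjusted p = 0.000166), and the second Mcl1 probe was at -0.16 and missed the threshold (limma adjusted p = 0.0848). Bcl2l1 missed the threshold with the processed signals of the scanner software (limma adjusted p = 0.0732), Bcl2 without control 881, 832, 522 or 391 (0.0515 to 0.105), and Mcl1 without control 832 or 391 (0.0514 and 0.069). Bcl2l11 (-0.34, limma adjusted p = 0.0489) missed it in 12 of 23 other settings, among them the removal of control 832, 522 or 391 or hypothyroid 891, 311, 723 or 626 (0.0506 to 0.20), and with the dyes as labelled its sign turned (0.08). Its second probe was below the reference on all 10 arrays (-0.47, limma adjusted p = 1.26e-05). With median centring alone Bcl2l1 (0.09, limma adjusted p = 0.767), Mcl1 (limma adjusted p = 0.45) and Bcl2l11 (limma adjusted p = 0.141) missed the threshold. Bmf was at 0.42 (SE 0.33) in that setting. With the dyes of slide 141 as labelled 0 of the genes other than Bmf passed in either direction. Without that slide Bcl2l1 was higher and 6 were lower.

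Promoter sequences of these genes are shown because the study changes thyroid hormone, whose receptors bind the half-site AGGTCA, and because Bcl2l11 and Bbc3 are known targets of FoxO factors, which bind GTAAACA. In the RefSeq promoter table of GRCm38.p6 (windows of 300 bases around each start site), 9 of the 10 genes had 16 promoters. AGGTCA, on either strand, was in 2 of the 16 (12.5%, with 16.3% of all 32841 promoters), and GTAAACA in 2 of the 16 (12.5%, with 3.65% of all). As GTAAACA was picked for Bcl2l11 and Bbc3, the 2 genes that hold it, nothing is read from its share. A window of 30 bases around each match follows, with the motif in capitals. It is read 5′ to 3′ on the strand of the gene, so that TGACCT and TGTTTAC are the motifs on the opposite strand.
Bmf, chr2:118549809-118549838, minus strand: cgcttctgacggAGGTCAgaaatgcgcccg
Bcl2l1, chr2:152828576-152828605, minus strand: taactggccatgTGACCTtggacaggctgg
Bcl2l11, chr2:128125800-128125829, plus strand: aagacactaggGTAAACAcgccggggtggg
Bbc3, chr7:16310083-16310112, plus strand: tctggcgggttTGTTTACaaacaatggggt

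The Bmf match lay 140 bases before 1 of its 3 annotated start sites. Such matches describe the letters in these windows only.

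The pathway around the family was followed through 61 further genes in 7 lists, of which 58 had a probe and 56 were tested. Between hypothyroid and control liver 0 of the 56 passed an adjusted p of 0.05 in limma (0.00936% of all probes did). At an unadjusted p of 0.05, 4 of the 56 passed, where 7.47% of all probes did. Among them were Cycs, Birc2 and Dynll2. The means of 32 genes were lower and of 24 higher, with a median of -0.02, and with median centring alone 13 were lower and 43 higher. Bcl2a1a, Bcl2a1d and Bok were not found by symbol, and Bcl2l10 and Hrk were too dim to test.

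Bcl2l2 and Bcl2a1b, protective relatives of Bcl2, differed by 0.04 and 0.11, and Bcl2a1b is uncertain because it has nearly identical copies. Among other BH3-only and Bcl2-like genes the range was from -0.07 for Bnip3l to 0.31 for Bnip3, both of which act in the removal of mitochondria. Among binding partners and upstream regulators it was from -0.36 for Jun (-0.17 without control 616) to 0.17 for p53 (Trp53). Without control 616 Bnip3l turned from -0.07 to 0.05. Of the dynein light chains, Dynll2, the one that holds Bmf, differed by 0.16 (SE 0.07, limma adjusted p = 0.666) and Dynll1 by -0.25 (SE 0.25), which was 0.001 (SE 0.13) without control 616.

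Downstream of the mitochondrion Cycs, the cytochrome c that the pores release, read 0.77, 0.57, 0.62, 1.18 and 0.60 in control and 0.41, 0.50, 0.01, 0.28 and 0.41 in hypothyroid liver. It was the 1 gene whose groups did not overlap among the 54 with a value on all arrays, where 0.993% of all probes were apart in that direction, and its groups overlapped too with median centring alone and with the dyes as labelled. The difference was -0.43 (SE 0.13, limma adjusted p = 0.491) and was -0.32 (SE 0.10) without control 616, the highest control. At the other end of its list was the nuclease Endog (0.15, SE 0.16), which was at -0.004 (SE 0.09) without that array.

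Among the caspases, the proteases that carry out apoptosis, and their substrates, Casp6 had the highest difference (0.26, SE 0.13). The caspase inhibitors ran from Birc3 (-0.20, SE 0.13) to Birc2 (0.29, SE 0.13, limma adjusted p = 0.66), and the death receptor pathway from its ligand Tnfsf10 (-0.21, SE 0.10) to Cflar, which blocks Casp8 (0.22, SE 0.13). Without control 616 these became 0.16 for Casp6, -0.07 for Birc3, 0.21 for Birc2, -0.13 for Tnfsf10 and 0.11 for Cflar. The list medians lay between -0.11 and 0.07.

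**Figure D4:**
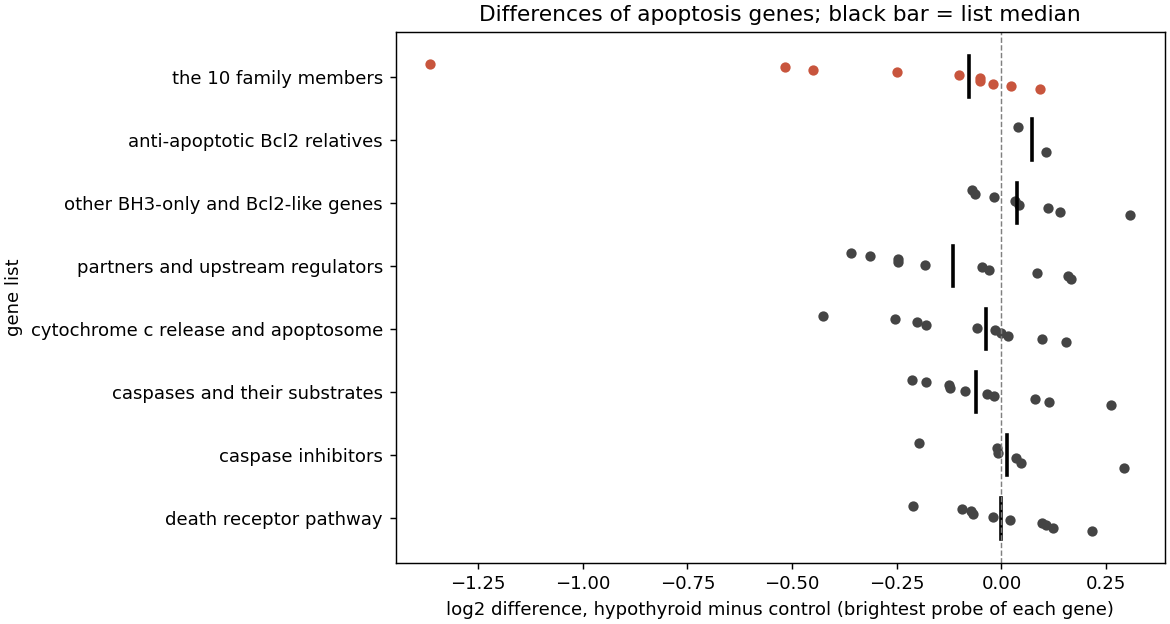
Log2 difference between hypothyroid and control liver (horizontal axis, brightest probe) for the 10 family members (red) and for each tested gene of 7 pathway lists (grey, 1 row per list), with a black bar at the median. Bmf stands alone at -1.36, and the pathway genes lie between -0.43 (Cycs) and 0.31 (Bnip3).

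MiRNAs that are described as acting on transcripts of the family were read by TLDA in 4 livers per group, numbered in another way so that no animal was matched to its array, as threshold cycles less those of U6 (delta Ct). Here 1 cycle is a doubling, and changes are given so that a positive value means more miRNA in hypothyroid liver. The 14 listed miRNAs are read below by those with the widest changes and by miR-221 and miR-222, which are known to act on Bmf and Bbc3. Their RefSeq sequences show which share a seed (bases 2 to 8, in capitals) and so would share targets. The assay names without an arm were read as the main arm.
miR-221-3p: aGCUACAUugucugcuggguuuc
miR-222-3p: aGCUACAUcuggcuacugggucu
miR-29a-3p: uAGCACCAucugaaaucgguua
miR-29b-3p: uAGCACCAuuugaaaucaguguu
miR-29c-3p: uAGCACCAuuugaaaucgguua
miR-125b-5p: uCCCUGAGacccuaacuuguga

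Of the 14 listed miRNAs 0 passed an adjusted p of 0.1 in limma, as did 0 of all 563 tested (0%), with adjusted p-values from 0.69 to 0.993. At an unadjusted p of 0.1, 2 of the 14 and 43 of the 563 (7.64%) passed, and at an unadjusted p of 0.05, 0 of the 14. The median change was 0.16 over the listed miRNAs and -0.07 over all, with 10 higher and 4 lower in hypothyroid liver. Against the mean of the miRNAs read in all livers, in place of U6, the split was 4 higher and 10 lower.

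miR-222, with the seed GCUACAU, had delta Ct values of 7.49, 7.26, 7.05 and 6.98 in control livers 1 to 4 and of 6.58, 7.21, 6.87 and 7.04 in hypothyroid livers 1 to 4. The groups overlapped, and the change was 0.27 (SE 0.24, limma adjusted p = 0.69). miR-221, with the same seed, was at 10.28, 9.54, 9.97 and 10.12 in control liver and at 10.48 and 9.68 in hypothyroid livers 1 and 2. Hypothyroid liver 3, where the assay was read at 34.8 cycles but carried no delta Ct, and hypothyroid liver 4, with no reading, were not used. The change over the 6 livers with a value was -0.10 (SE 0.39). It was -4.65 with hypothyroid liver 3 entered at its 34.8 cycles and liver 4 at 40, each less its U6 cycles (18.21 and 18.26). The deposited delta Ct values rest on other, higher U6 cycles. In hypothyroid liver 3, for example, miR-222 was read at 26 cycles with a delta Ct of 6.87. The 2 entered livers are thus on another baseline than the rest, which makes this fall larger. Against the mean of the miRNAs the changes were -0.02 for miR-222 and -2.35 for miR-221, where hypothyroid liver 3 then entered.

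The largest rise in mean was that of miR-125b-5p, described as acting on Bmf, Bbc3, Mcl1 and Bak1. It was at 6.89, 6.45, 6.20 and 6.32 in control and at 5.36, 6.22, 5.57 and 6.16 in hypothyroid liver. Only the highest hypothyroid value reached into the control range, by a small margin, and the change was 0.64 (SE 0.30, limma adjusted p = 0.69). It was 0.88 between livers 1 and 2 of each group, which the labels place in study 1, and 0.40 between livers 3 and 4, of study 2. Against the mean of the miRNAs it was 0.34. The miR-29 members, which act on Mcl1 and share the seed AGCACCA, changed by 0.36 (miR-29a, SE 0.30), 0.34 (miR-29b, SE 0.27) and 0.59 (miR-29c, SE 0.31), each with overlapping groups. Against the mean of the miRNAs these were 0.07, 0.04 and 0.29, and without control liver 1 those of miR-29a and miR-29b were 0.17 and 0.14. Without control liver 3 that of miR-29a was 0.58.

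The largest fall in mean was that of miR-15b, of a family that acts on Bcl2. It was at 7.55, 7.43, 6.76 and 6.90 in control and at 7.34, 7.43, 7.35 and 9.23 in hypothyroid liver. Hypothyroid liver 4 alone lay outside the control range, and the change of -0.68 (SE 0.48) was -0.21 without it. The related miR-15a had the same animal apart, at 11.2 against 8.93 to 9.51 in the other 3, and its change of -0.52 was -0.02 without it.

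**Figure D5:**
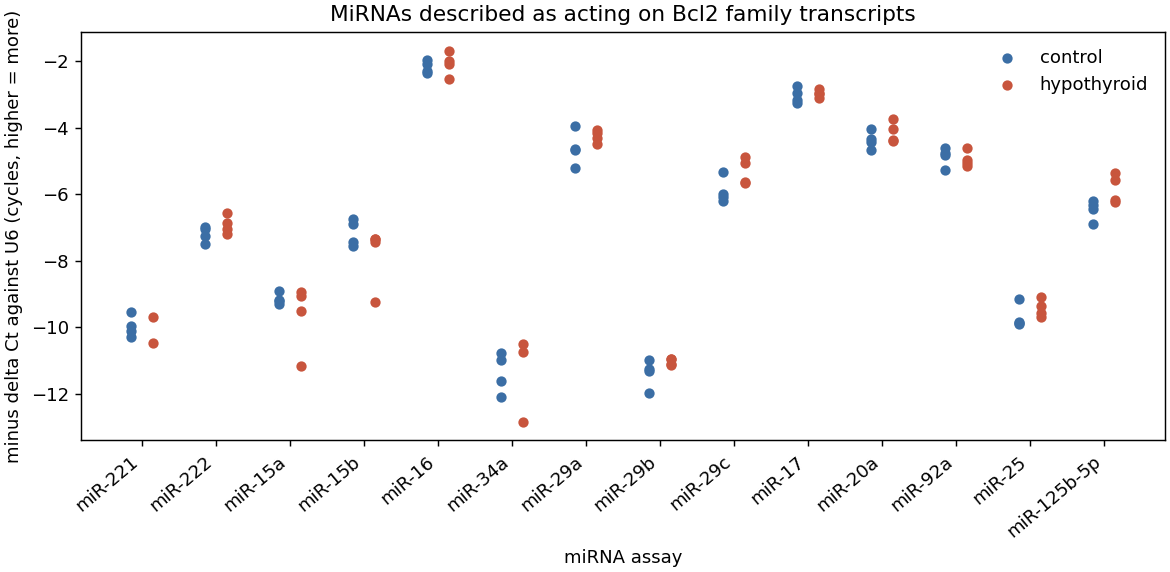
Minus delta Ct against U6 (vertical axis, cycles, higher values mean more miRNA) for the 14 listed miRNAs (horizontal axis), 1 point per liver, in 4 control (blue) and 4 hypothyroid (red) livers. The colours overlap for the miRNAs read in all livers, miR-221 has 2 hypothyroid points and miR-34a 3, and a single low hypothyroid point stands out for miR-15a and miR-15b.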

How the data were processed

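Arrays of 5 control and 5 hypothyroid livers and TLDA cards of 4 and 4 were analysed, grouped by the labels. For the arrays the authors deposited median spot intensity in both channels, made with Feature Extraction 10.1.1.1 and not normalized, and the software's processed intensity, used as an alternative. For the TLDA the authors deposited threshold cycles (Ct, in cycles, another unit) and delta Ct against U6, which is on a log2 scale. The authors' deposited table of fold changes, p-values and q-values holds their own comparison and was not used. The methods' F-test on delta Ct was not repeated.

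Log2 ratios were computed with limma 3.58.1 in R 4.3.3 (normexp, offset 50, and loess, span 0.2), with channels exchanged on slide 141. Control and outlier spots were left out and repeated spots averaged. Probes were tested if above the limit of the methods (5% trimmed mean plus 3 trimmed SDs of negative control spots) on at least 4 arrays of a group. limma replaced the permuted Fs test of the methods, at an adjusted p of 0.05 (Benjamini-Hochberg over all 32053 probes), and 0.1 for 563 miRNAs with a value in at least 2 livers per group. Names came from accessions in the RefSeq table of GRCm38.p6, used for names and sequences only. The build of the array annotation is not given in the sources used here.

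Members, lists and tests were chosen with earlier results of these data known. Named were all members by their brightest probe, the ends of each pathway list (1 result is not reported here), the 5 genes nearest to Bmf, and of the miRNAs miR-221, miR-222 and the ends of the list. The miRNAs miR-29a, miR-29b, miR-29c and miR-15a, the genes Dynll1, Dynll2, and the genes at an unadjusted p of 0.05 were added after their values were seen. Marker lists were for hepatocytes, exocrine pancreas, leukocytes, Kupffer cells, erythroid cells, endothelium, bile ducts and skeletal muscle. Alternatives were median centring, the scanner software's processed signals, no background correction, a wider loess span (0.3), other filters, slide as a block, dyes as labelled, slide 141 or each array left out, and probes averaged to genes. For the TLDA they were wells without a delta Ct entered at their read cycle, or at 40 cycles where unread, and complete miRNAs only. Others were replicate number or study as a block, another reference, and each liver left out. Leaving out controls 832, 522 and 616, or slide 141 with control 616, was chosen after seeing the data. statmod (version 1.5.0) and data.table (version 1.17.8) were used, and programs were tested on simulated data.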

Additional observations from a re-analysis of the deposited data

Results flagged for a closer look

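In each group of 4 or 5 samples the gap of the highest or lowest sample to its neighbour was divided by the range of the group (Dixon's ratio). Of 60 groups (17 tested probes of the 10 genes and the 14 listed miRNAs, where a group had 4 or 5 values), 5 passed the 95% critical value, or 8.33%, where chance gives about 5%. Bid was low in hypothyroid 576 (log2 ratio -0.69, Dixon's ratio 0.711) and Bcl2l11 in control 832 (-1.05, Dixon's ratio 0.791), which are the 2 arrays of slide 141. Pmaip1 was high in control 616 (-1.02, Dixon's ratio 0.787), the array where mean ratios of hepatocyte and biliary markers were both nearest the reference. Among the miRNAs, miR-15b was low in hypothyroid liver 4 (delta Ct 9.23, Dixon's ratio 0.952) and miR-25 was high in control liver 4 (delta Ct 9.13, Dixon's ratio 0.914).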

How the results depend on the processing

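The Bmf difference of -1.36 had the same direction in all 23 other settings. It moved to -0.83 with the dyes as labelled and to -0.66 with probes averaged to genes, where the second probe enters, and lay between -1.49 and -1.24 when each array was left out in turn. With 1 array left out, 0 to 1 of the 10 genes passed between hypothyroid and control liver (1, Bmf, without control 616), and 1 of them also did when slide was a random block. For control liver against the reference, Bcl2l1 passed as higher with every single array left out. It missed the threshold with processed signals, with median centring and with the dyes as labelled. The 8 lower genes became 0 with the dyes as labelled, and 5 to 8 with 1 array left out (5 without control 832 or control 391). Bcl2l11 against the reference turned to 0.077 with the dyes as labelled. That setting reverses the sign of the ratios of slide 141, among them the -1.05 of Bcl2l11 in control 832. The cause of the changes in the other settings was not tested. Over all probes, 3 were called, 34 without control 616, 14 under that block, and 8 without background correction. In 3 settings limma called 0 probes, with 2233 at an unadjusted p of 0.05 (slide as a fixed block), 107 (dyes as labelled) and 2320 (without slide 141).

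None of the 56 pathway genes or 14 miRNAs was called in any setting. Livers of the TLDA with the same replicate number had low correlations of deviations (-0.04, 0.06, 0.15 and 0.18). Livers with unlike numbers were not compared, so these values do not settle whether the numbers pair the livers. With the replicate number as a block 0 of the 14 miRNAs and 0 of all 563 passed, with 52 at an unadjusted p of 0.1. An adjusted p above the threshold with 5 arrays or 4 livers per group does not show that groups are alike, and dim probes such as the third of Bmf give no usable ratio.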

Other observations

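Other cell types were read from marker lists on the same arrays, as mean log2 ratios over the reference. Kupffer cell markers (6 on the array) averaged from 3.13 to 4.19 in control and from 3.79 to 4.05 in hypothyroid liver, leukocyte markers (10) from 0.61 to 1.02 and from 0.57 to 1.01, endothelial markers (6) from 2.36 to 3.04 and from 2.68 to 2.88, and erythroid markers (7) from 0.90 to 1.66 and from 1.34 to 1.66. These ranges overlapped between the groups, and the lowest control of the Kupffer cell, endothelial and erythroid lists was 616. Biliary markers (5) averaged -0.64 in control 616 and from -2.38 to -1.91 on the other 9 arrays, and skeletal muscle markers (8) from -0.84 to -0.32 in control and from -0.90 to -0.83 in hypothyroid liver. In 0 of these lists did a gene pass an adjusted p of 0.05 in limma between the groups. At an unadjusted p of 0.05, 3 genes passed over the 6 lists, where 7.47% of all probes did. In the other 2 lists, 8 of 10 tested exocrine pancreas markers and 2 of 7 hepatocyte markers passed unadjusted, and 0 adjusted. The pancreas mean was lower in hypothyroid liver for 9 markers. The hepatocyte mean was lower for 0, and the list differed by 0.65, with control 616 the lowest array. The part of these cell types in the values of Bmf and its relatives was not tested.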
